A study of Mus musculus with 10 samples.

Results

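The 7 small heat shock protein genes Cryab, Hspb1, Hspb2, Hspb3, Hspb6, Hspb7 and Hspb8, and Bag3, the gene of their co-chaperone, were followed in gastrocnemius muscle with and without desmin. These 8 genes were taken by name from the 54232 genes of the deposited expression table, and all 8 were among the 14289 genes that reached the expression limit and were tested. The muscle, a mostly fast calf muscle, came from mice of the strain B6J.129Sv-Destm1Cba/Cscl at 3 months of age. Of the 10 columns, 5 belonged to desmin knock-out mice (genotype Des -/-) and 5 to wild-type mice (Des wt/wt), which the study describes as littermates. No treatment is given for either group. The labels give no sex, and Y-linked transcripts were expressed in all 10 mice (levels below). The knock-out is not limited to a cell type, so that heart and smooth muscle of these mice lack desmin as well. The methods speak of RNA pooled from the muscles of a genotype, whereas the sample titles and the table give a column per mouse. The columns were taken as separate mice, and if the RNA was pooled the p-values measure a technical spread. The labels name gastrocnemius, while the study elsewhere speaks of gastrocnemius together with plantaris.

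Small heat shock proteins are chaperones that share a crystallin domain, need no ATP and hold unfolding proteins so that they do not aggregate. Striated muscle holds more members of the family than most tissues, and several of them bind to desmin filaments and to the Z-disc under stress. BAG3 joins HSPB8 to HSP70 and guides damaged proteins of the Z-disc, filamin C among them, to chaperone-assisted selective autophagy. Mutations of the human CRYAB and BAG3 genes cause myofibrillar myopathies with desmin aggregates. The question asked here was whether the transcripts of this chaperone set differ where desmin itself is absent.

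Expression was deposited as rlog, a regularized logarithm to base 2 that the authors had adjusted for library size. A value does not give the raw number of reads behind it, so the depth of each mouse is unknown. The targeted gene Des ranged from 11.76 to 11.89 in the 5 desmin knock-out mice and from 16.10 to 17.74 in the 5 wild-type mice, so every mouse carried the Des level of its label. Wild-type mouse 3 stood apart from its group, with a mean correlation of 0.982 with the other wild-type mice against 0.989 to 0.991 for these, and its summed values were 1.48 times the median of all mice. It also had the highest wild-type value of all 8 chaperone genes and the highest of all 10 mice for 5 of them. Over all tested genes, it was the highest wild-type mouse in 34.2%. Values without this mouse are given below for each of the 8 genes.

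Promoter letters of the genes are shown first, because heat shock factors act through short repeats that can be read in them. RefSeq promoter windows of GRCm38.p6, from 250 bases before to 50 bases after a transcription start, were at hand for 6 of the 8 genes, all but Cryab and Hspb2. The letters GAANNTTC or TTCNNGAA, the smallest form of a heat shock element on either strand, stood in the windows of 5 of these 6 genes. They stood in 15.1% of all 32851 promoter windows, which is a share of windows and not of genes. The matches were copied with flanking bases, with the 8 matching bases in capitals and each written on the strand of its gene.

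Hspb1, chr5:135887792-135887819, plus strand: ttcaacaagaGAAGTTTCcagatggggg
Hspb1, chr5:135887812-135887839, plus strand: gatgggggcaGAACCTTCctggccccgc
Hspb6, chr7:30553171-30553198, plus strand: agtaattattGAAGTTTCtaaataagga
Hspb8, chr5:116422845-116422872, minus strand: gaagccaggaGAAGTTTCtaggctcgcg
Bag3, chr7:128523605-128523632, plus strand: aagttctctggatgggaccaGAAGTTTC
Hspb3, chr13:113663883-113663910, minus strand: tccccgaatgGAATTTTCaggcagaggg

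Hspb1, Hspb6, Hspb8 and Bag3 shared the same 8 bases, GAAGTTTC. Relative to the RefSeq start of each window, the matches of Hspb1, Hspb6 and Hspb3 lay before the start, and those of Hspb8 and Bag3 lay 3 and 43 bases after it. RefSeq starts can differ from the GENCODE gene ends given below, and the match of Hspb6 lies inside its GENCODE gene. The longer form, with 3 of these alternating units on either strand, was found in none of the 6 windows and in 0.603% of all windows. Hspb7 was the member whose window held no such letters. Its 250 bases before the start, chr4:141420529-141420778 on the plus strand, are printed because this gene carries the result below, with the single E-box (CANNTG) in capitals.

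Hspb7: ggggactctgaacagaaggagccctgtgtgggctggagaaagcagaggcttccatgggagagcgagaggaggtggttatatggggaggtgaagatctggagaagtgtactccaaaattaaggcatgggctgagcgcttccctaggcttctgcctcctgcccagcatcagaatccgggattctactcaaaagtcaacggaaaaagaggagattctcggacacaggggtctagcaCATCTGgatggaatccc

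An E-box is the letter pattern read by myogenic factors, and CANNTG stood in 72.3% of all windows. CATTCC or GGAATG, the MCAT pattern of TEAD factors, stood in the windows of Hspb7 and Hspb1 and in 14.7% of all windows. These are matches of letters, not binding sites.

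Hspb7 rose in desmin knock-out muscle, by more than any other member and by 2.16-fold on the rlog scale (95% interval 1.75 to 2.67). Hspb7 (ENSMUSG00000006221, chromosome 4 of GRCm38, 141420779 to 141425311, plus strand) encodes a small heat shock protein of heart and skeletal muscle that binds the actin crosslinker filamin C. Its rlog values were 15.68, 15.79, 15.56, 15.80 and 15.90 in desmin knock-out mice 1 to 5. In wild-type mice 1 to 5 they were 14.48, 14.69, 15.12, 14.35 and 14.51. Every desmin knock-out mouse exceeded wild-type mouse 3, the highest of its group, so the genotypes did not overlap. The log2 difference was 1.11 (SE 0.14, limma with adjusted p = 1.5e-04), and the exact permutation test over the 10 mice gave p = 0.00794, the smallest that 5 against 5 allow. Of all tested genes, 7.70% were higher at an adjusted p under 0.05, and 1 of 8 members was, which is near that background. The members without overlap were 1 higher and 0 lower, with 7.45% of all tested genes higher and 6.97% lower in this way. Hspb7 stood in place 223 of 14289 by p. Its difference passed in all 19 alternative fits, between 1.04 and 1.29, and was 1.23 without wild-type mouse 3.

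**Figure D1:**
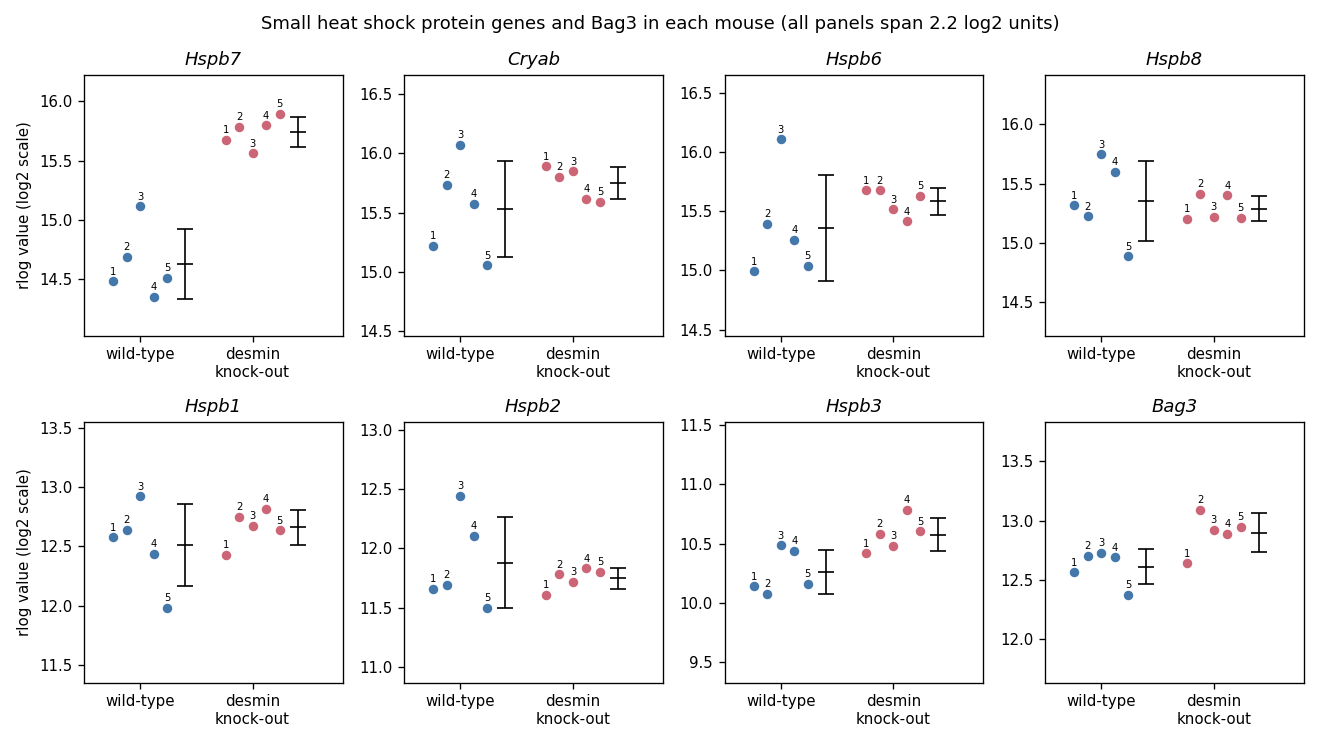
The rlog value (log2 scale, vertical axis) of each of the 8 genes in 5 wild-type (blue) and 5 desmin knock-out mice (red), each point labelled with its mouse number, with the mean and SD of each group as bars to the right of its points. In Hspb7 the lowest knock-out value, 15.56, lies above the highest wild-type value, 15.12, and in the other panels the groups overlap.

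Bag3 and Hspb3 came next, and neither passed the test with all 10 mice. Bag3 (ENSMUSG00000030847, chromosome 7, 128523616 to 128546981, plus strand) had rlog values of 12.64, 13.09, 12.92, 12.89 and 12.95 in desmin knock-out mice 1 to 5. In wild-type mice 1 to 5 it had 12.56, 12.70, 12.73, 12.69 and 12.38. Knock-out mice 2 to 5 lay above all wild-type mice, whereas knock-out mouse 1 lay within their range. The log2 difference was 0.29 (SE 0.11, limma with adjusted p = 0.0931), that is 1.22-fold with a 95% interval of 1.04 to 1.43, and the exact permutation p, not adjusted, was 0.0317. Without wild-type mouse 3 the log2 difference was 0.31 and passed (limma, adjusted p = 0.0383).

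Hspb3 (ENSMUSG00000051456, chromosome 13, 113662896 to 113663676, minus strand) encodes a small heat shock protein of muscle that assembles with HSPB2. Its rlog values were 10.42, 10.58, 10.48, 10.78 and 10.61 in desmin knock-out mice 1 to 5 and 10.14, 10.08, 10.48, 10.44 and 10.16 in wild-type mice 1 to 5. Wild-type mice 3 and 4 reached into the knock-out range, and the other 3 lay below it. The log2 difference was 0.31 (SE 0.11, limma with adjusted p = 0.0716), 1.24-fold with a 95% interval of 1.06 to 1.46, and the exact permutation p, not adjusted, was 0.0397. Hspb3 passed when either wild-type mouse 3 (log2 difference 0.37, limma, adjusted p = 0.0152) or wild-type mouse 4 was left out (0.36, limma, adjusted p = 0.0484). Over its 19 alternatives the adjusted p of Hspb3 ranged from 1.6e-04 to 0.179, and that of Bag3 from 0.00681 to 0.221.

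Cryab and Hspb6 had higher means without desmin, and their groups overlapped. Cryab (ENSMUSG00000032060, chromosome 9, 50751325 to 50756636, plus strand) encodes αB-crystallin, the chaperone long known as a partner of desmin. It had rlog values of 15.89, 15.80, 15.85, 15.62 and 15.59 in desmin knock-out mice and 15.22, 15.73, 16.07, 15.57 and 15.05 in wild-type mice 1 to 5. The knock-out values lay within the wild-type range, below wild-type mouse 3 and above wild-type mice 1, 4 and 5. The log2 difference was 0.22 (limma, adjusted p = 0.445), 1.16-fold with a 95% interval of 0.897 to 1.51.

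Hspb6 (ENSMUSG00000036854, chromosome 7, 30552178 to 30555443, plus strand), whose protein also acts in the relaxation of smooth muscle, showed the same picture. Its rlog values were 15.67, 15.68, 15.51, 15.41 and 15.63 in desmin knock-out and 14.99, 15.39, 16.11, 15.26 and 15.04 in wild-type mice. All knock-out values lay above wild-type mice 1, 2, 4 and 5 and below wild-type mouse 3. The log2 difference was 0.22 (limma, adjusted p = 0.46), 1.17-fold with a 95% interval of 0.888 to 1.54. Without wild-type mouse 3 it was 0.41 and passed (limma, adjusted p = 0.0122), whereas Cryab then had 0.35 and did not pass (limma, adjusted p = 0.0881).

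For Hspb1, Hspb2 and Hspb8 no difference was detected. Hspb1 (ENSMUSG00000004951, chromosome 5, 135887919 to 135889563, plus strand), a chaperone of actin and desmin filaments that is phosphorylated under stress, ranged from 12.43 to 12.82 in desmin knock-out and from 11.98 to 12.92 in wild-type mice. Its log2 difference was 0.15 (95% interval -0.17 to 0.47, limma, adjusted p = 0.551), and it was 0.25 without wild-type mouse 3 and 0.017 without wild-type mouse 5. Hspb2 (ENSMUSG00000038086, chromosome 9, 50751078 to 50752354, minus strand) ranged from 11.61 to 11.83 and from 11.50 to 12.44, with a log2 difference of -0.13 (95% interval -0.46 to 0.20, limma, adjusted p = 0.619). Hspb8 (ENSMUSG00000041548, chromosome 5, 116408491 to 116422864, minus strand), the partner of BAG3, ranged from 15.20 to 15.41 and from 14.89 to 15.75, with a log2 difference of -0.06 (95% interval -0.39 to 0.26, limma, adjusted p = 0.815). In all 3 genes the wild-type mice enclosed the knock-out mice on both sides. Without wild-type mouse 3, which was the highest in each, the log2 difference of Hspb2 was 0.0091 and that of Hspb8 0.034. Neither sign was stable over the alternatives.

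**Figure D2:**
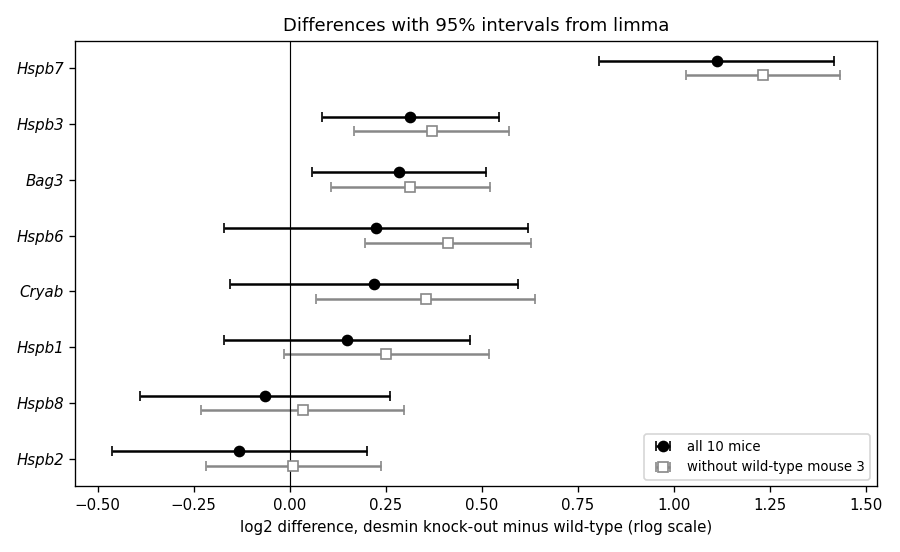
Log2 differences of the 8 genes, desmin knock-out minus wild-type on the rlog scale (horizontal axis), with 95% intervals from limma, for all 10 mice (black circles) and without wild-type mouse 3 (open squares). Hspb7 lies at 1.11 and 1.23, and the other genes lie between -0.13 and 0.41.

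The median log2 difference of the 8 members was 0.22, compared with -0.0029 over all tested genes. At an adjusted p under 0.05, 1 member was higher and 0 were lower, with 13.7% of all tested genes changed in either direction (limma). At an unadjusted p under 0.05 the members were Hspb7, Hspb3 and Bag3, 3 of 8, compared with 27.6% of all tested genes (limma). Without wild-type mouse 3, 4 members were higher, namely Hspb7, Hspb6, Hspb3 and Bag3, when 9.34% of all tested genes were higher. This mouse was the highest wild-type mouse in all 8 members and in 34.2% of all tested genes. Leaving it out therefore had to raise the difference of every member, and the count cannot be read against that share. No alternative called a member lower. In a bulk sample, more of the RNA of a cell type and more cells of that type cannot be told apart.

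The wild-type SD exceeded the knock-out SD in 7 of the 8 genes and in 82.9% of all tested genes. Bag3 was the exception with 0.15 in wild-type and 0.16 in desmin knock-out muscle. The largest wild-type SD was that of Hspb6 (0.45), with 0.11 in desmin knock-out mice. Wild-type mouse 5 was at the other end from mouse 3 and had the lowest value of all 10 mice for 5 members. After the mean of each genotype was taken off, the values of all 28 pairs of members were positively correlated over the 10 mice (Pearson's r from 0.28 to 0.92, median 0.63). Without wild-type mouse 3 the median was 0.36 and 22 of 28 pairs stayed positive. These correlations describe 10 libraries that all genes share and carry no test.

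Levels can be compared between genes only per length, here as the rlog value minus the log2 of the exon length in kb. In wild-type muscle the order of these levels was Cryab (14.97 ± 0.41), Hspb8 (14.39 ± 0.34), Hspb6 (14.16 ± 0.45), Hspb7 (13.16 ± 0.30), Hspb1 (12.47 ± 0.34), Hspb2 (12.14 ± 0.39), Bag3 (11.26 ± 0.15) and Hspb3 (10.62 ± 0.19), each as mean ± SD over n = 5 mice. Neighbours in this order kept it in all 5 mice, except Hspb8 and Hspb6, whose gap of 0.23 ± 0.32 (SD, n = 5) did not exceed its spread. In desmin knock-out muscle Hspb7 stood level with Hspb8 and Hspb6, and Cryab lay above them with 15.18 ± 0.14 (SD, n = 5). The level per kb of Hspb7 was 14.27 ± 0.13, next to Hspb8 with 14.33 ± 0.11 and Hspb6 with 14.38 ± 0.11 (SD, n = 5). The gaps of 0.051 ± 0.14 and 0.055 ± 0.18 between these neighbours did not exceed their spread. In wild-type muscle Hspb7 had lain 0.99 ± 0.22 (SD, n = 5) below Hspb6. The remaining family genes Cryaa, Hspb9 and Odf1, which belong to the lens and the testis, stayed under the expression limit in both genotypes, with rlog means of at most 1.24.

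Values within a mouse show how members differ from each other in their response. A shift common to all genes of a sample cancels in them, whereas quantile normalization can change them. Hspb7 minus the mean of the other 7 members ranged from 2.08 to 2.41 in desmin knock-out and from 0.91 to 1.51 in wild-type mice, without overlap, a difference of 0.97 between the genotypes (exact permutation test, p = 0.00794). Set against each of the 7 other members in turn, the difference lay between 0.80 for Hspb3 and 1.24 for Hspb2, each with an exact permutation p of 0.00794, also after adjustment over the 7. This comparison was chosen after the values were seen, since Hspb7 had the largest difference.

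Members in 3 pairs were compared for their known relation. For Hspb2 and Hspb3, whose proteins form a complex, the gap narrowed in desmin knock-out muscle, with Hspb2 the higher in every mouse. Hspb2 minus Hspb3 was 1.19, 1.20, 1.24, 1.05 and 1.20 in desmin knock-out mice and 1.52, 1.62, 1.96, 1.67 and 1.34 in wild-type mice 1 to 5, with no overlap. The difference was -0.45 (exact permutation test, p = 0.00794, adjusted over 3 pairs 0.0238), and it passed in all 12 alternatives, from -0.52 to -0.36. Bag3 minus Hspb8, partners in the complex that feeds autophagy, was higher by 0.35 (-2.39 ± 0.13 against -2.74 ± 0.23, SD, n = 5, exact permutation p = 0.0397, adjusted 0.0556) and did not pass. Cryab minus Hspb2 was also higher by 0.35 (knock-out mice from 3.79 to 4.28, wild-type mice from 3.47 to 4.04, exact permutation p = 0.0556, adjusted 0.0556) and did not pass. Both pairs passed in some alternatives, with adjusted p from 0.0397 to 0.111 for Bag3 minus Hspb8 and from 0.0238 to 0.111 for Cryab minus Hspb2.

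**Figure D3:**
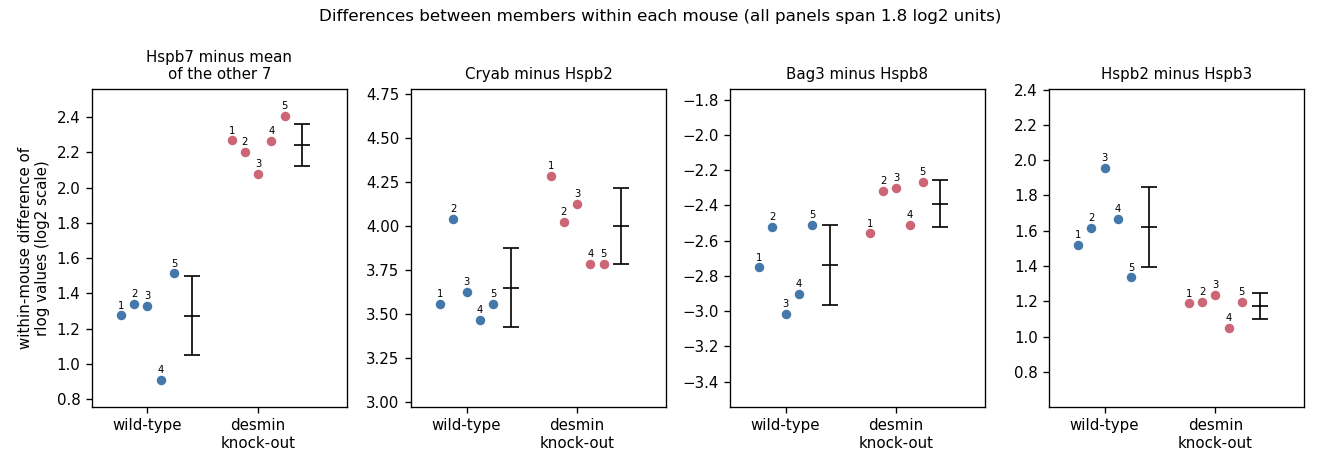
Within-mouse differences of rlog values (log2 scale, vertical axis) between members in 5 wild-type (blue) and 5 desmin knock-out mice (red), labelled by mouse number, with mean and SD to the right of each group. Hspb7 minus the mean of the other 7 and Hspb2 minus Hspb3 separate the genotypes, with differences of 0.97 and -0.45, and the other panels overlap.

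Cryab and Hspb2 are neighbours on opposite strands that overlap by 1030 bases in GENCODE M21. The genes share 252 exon bases, out of 834 for Hspb2 and 1479 for Cryab. The libraries were made with a stranded kit, but the strand setting of the counting is not given in the sources used here. How reads of the shared bases were counted is therefore unknown. Hspb6 likewise shares 122 of its 2299 exon bases with Proser3 on the other strand. It also shares 3 with Lin37, and the other 5 members share none with a gene of the opposite strand.

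Of the 3 heat shock factors, which drive many chaperone genes, 1 was higher and 0 were lower. At an adjusted p under 0.05, 7.70% of all tested genes were higher and 5.99% lower (limma). Hsf2 rose in desmin knock-out muscle by 0.56 (SE 0.13, limma with adjusted p = 0.0102), with rlog values from 10.82 to 11.19 against 10.12 to 10.81, without overlap. Hsf1, the main factor of the heat shock response, had values from 10.21 to 10.47 against 10.57 to 11.62, also without overlap, but its log2 difference of -0.46 (SE 0.18) did not pass (limma, adjusted p = 0.106). The highest Hsf1 value was that of wild-type mouse 3, and without it the log2 difference was -0.26 and passed (limma, adjusted p = 0.0268). Hsf4 had a log2 difference of -0.08. Of all tested genes 14.4% showed no overlap between the genotypes in either direction.

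Of 13 heat-inducible chaperone and co-chaperone genes, 0 were higher and 1 was lower (limma, adjusted p under 0.05), with a median log2 difference of -0.12. Of all tested genes, 7.70% were higher and 5.99% lower in this way, and 6.97% were lower without overlap. The lower gene of the list was Stip1, whose protein links HSP70 to HSP90. It had a log2 difference of -0.36 (SE 0.11, limma with adjusted p = 0.0429) and no overlap. It passed in 7 of 19 alternatives, with adjusted p from 0.00236 to 0.0992, and lost its call without any one of the 5 knock-out mice and without wild-type mouse 2 or 4. The strongly heat-inducible Hspa1a, chosen after its values were seen, ranged from 7.92 to 10.08 among wild-type mice, the widest range of the list. The 5 desmin knock-out mice had 9.44 to 9.78. Wild-type mouse 2 had the highest wild-type value of 9 of these 13 genes. Without wild-type mice 2 and 3 together, a setting added after the values were seen, the log2 difference of Cryab was 0.47 and passed (limma, adjusted p = 0.0274), as did Hspb6, Bag3 and Hspb7, 4 members in all, with 7.72% of all tested genes higher. Wild-type mice 2 and 3 held the 2 highest wild-type values of each of these 4 genes. Leaving them out could therefore only raise these differences. Hspb3 did not pass in this setting (limma, adjusted p = 0.0533).

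**Figure D4:**
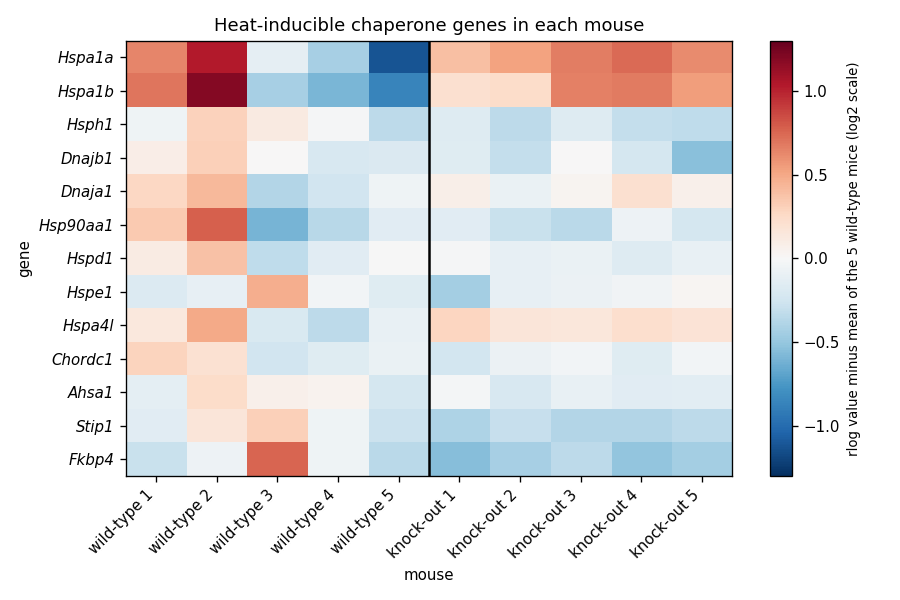
Colour gives the rlog value of each of 13 heat-inducible chaperone genes (rows) in each mouse (columns) minus the mean of the 5 wild-type mice, on the log2 scale, red above and blue below. Hspa1a and Hspa1b vary most among wild-type mice, and wild-type mouse 2 has the highest wild-type value in 9 of the 13 genes.

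Of the 10 BAG3 partners in chaperone-assisted selective autophagy (CASA), none passed in either direction (limma; median log2 difference -0.06), and 2 had an unadjusted p under 0.05, below the 27.6% of all tested genes. Without overlap, 1 was higher and 0 were lower, compared with 7.45% and 6.97% of all tested genes. Flnc, which encodes the filamin that the pathway clears, had rlog values of 15.41, 15.52, 15.35, 15.43 and 15.43 in desmin knock-out and 15.35, 15.27, 14.92, 14.87 and 14.71 in wild-type mice 1 to 5. The groups met at knock-out mouse 3 and wild-type mouse 1, and the log2 difference was 0.40 (SE 0.13, limma with adjusted p = 0.0602). It passed without wild-type mouse 1 (0.48, limma, adjusted p = 0.0268) and without wild-type mouse 2 (0.46, limma, adjusted p = 0.0456). In all, Flnc passed in 4 of 19 alternatives, with log2 differences from 0.24 with sample weights to 0.55 after quantile normalization. Hspa8, the constitutive HSP70 of the complex, had a log2 difference of -0.25 (limma, adjusted p = 0.316) and -0.12 without wild-type mouse 3. Stub1, which encodes the ubiquitin ligase CHIP, had -0.10 (limma, adjusted p = 0.692), and 0.0081 without that mouse.

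Of the 5 other BAG genes none passed (limma; median log2 difference -0.01), and 2 had an unadjusted p under 0.05, where 27.6% of all tested genes did. The same 2 were lower without overlap between the genotypes, as were 6.97% of all tested genes. Among the p38 and MAPKAP kinases, a cascade that leads to the phosphorylation of HSPB1 under stress, 6 of 7 genes were tested and 1 was lower. Mapk14, which encodes p38α, fell by 0.43 on the log2 scale (SE 0.09, limma with adjusted p = 0.00582), with 12.00 to 12.12 in desmin knock-out and 12.39 to 12.74 in wild-type mice, and it passed in all 19 alternatives. Over all tested genes 7.70% were higher and 5.99% lower.

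**Figure D5:**
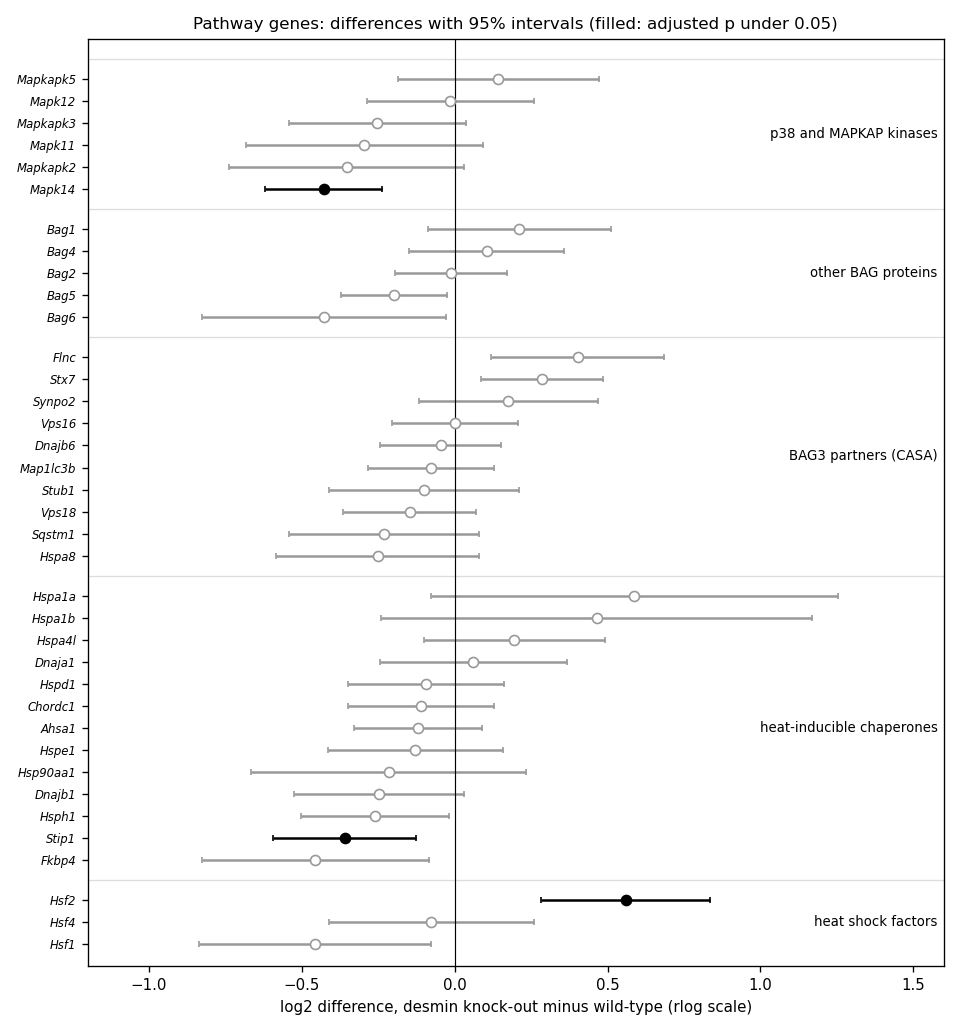
Log2 differences (desmin knock-out minus wild-type, rlog scale, horizontal axis) with 95% intervals from limma for the tested genes of 5 pathway lists, filled where the adjusted p was under 0.05. Hsf2 at 0.56, Stip1 at -0.36 and Mapk14 at -0.43 are filled, and Hsf1 at -0.46 and Flnc at 0.40 are not.

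Markers of fiber types and other cell types also differed between the genotypes. Of 10 slow-fiber markers 3 were higher and 1 was lower (limma), with log2 differences of 1.70 for Tnnt1 and -0.998 for Myl3, the extremes of the list, and their summed level ranged from 15.17 to 15.69 in desmin knock-out and from 14.63 to 15.70 in wild-type mice on the log2 scale. Of 12 fast-fiber markers 0 were higher and 2 were lower, with a summed level from 22.60 to 22.77 against 22.82 to 23.79. Without overlap between the genotypes, 5 of the 12 were lower, as were 6.97% of all tested genes. Fibroblast markers (4 of 6 higher, summed level from 13.82 to 14.42 against 13.36 to 14.29) and endothelial markers (4 of 6 lower, from 11.62 to 12.07 against 12.11 to 12.48) held several calls. Of the smooth muscle markers Lmod1 alone passed (lower), and the summed levels overlapped, from 11.84 to 12.49 against 12.03 to 13.12. Of the erythroid markers 2 of 5 were lower (from 11.49 to 12.09 against 12.00 to 13.37). The 4 Y-linked transcripts gave 0 calls (summed level from 12.63 to 13.02 against 11.94 to 13.04). Of the markers of macrophages (7), Schwann cells (7), adipocytes (5) and satellite cells (5), 0 passed in either direction. Every fast-fiber marker was above 17 in every mouse, no marker was listed at 0 and Myocd alone was under the limit. Their part in the differences of the chaperone genes was not tested.

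The 2 genes most like each member were named by Pearson's r over the 10 mice after the mean of each genotype was taken off, as a description. They were Nop2 and Ndufv1 for Cryab, Snx12 and Nsun2 for Hspb1, Spsb3 and Kcnj11 for Hspb2, Nhlrc1 and 1110065P20Rik for Hspb3. For Hspb6 they were Mgrn1 and Tpm2, for Hspb7 Atp5a1 and Akt1, for Hspb8 Ifi27 and Bex1, and for Bag3 Galc and Psmd10. The r lay between 0.92 for Psmd10 and 0.996 for Spsb3. Without wild-type mouse 3, only 5 of these 16 stayed among the 2 most alike.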

How the data were processed

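RNA-seq values of 5 desmin knock-out and 5 wild-type gastrocnemius samples were used, grouped by their titles. The submitters' processing notes name cutadapt 2.5, STAR 2.5.4a, featureCounts of Subread 1.6.1 and DESeq2 on GRCm38. The deposited values are rlog values on a log2 scale, made by the authors with a correction for library size and a shrinkage that makes differences of genes with few reads smaller. Symbols, positions and exon lengths came from GENCODE M21 (54079 of 54232 genes matched, and all 122 listed genes). The expression limit was a mean rlog of log2(10), and the genes at or above it entered limma 3.58.1 under R 4.3.3 (trended prior variance, two-sided, Benjamini-Hochberg adjustment over 14289 genes), after a test on simulated data. Single values were compared with two-sided exact permutation tests.

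The members, lists and tests were chosen with earlier results of these data known. Genes named in the text were the 8 members, Des, in each pathway list up to 4 genes with an adjusted p under 0.05, Hsf1, Hspa8, Stub1 and Flnc, 3 further family genes, the 2 genes most like each member and at most 2 genes of a marker list. Alternatives were other limits on expression, scalings, priors and weights, a replicate block, a covariate of 4 Y-linked transcripts and each mouse left out. Wild-type mice 2 and 3 were also left out together, a setting added after the values were seen. It is among the 19 alternatives of a gene. A threshold of 0.01 was applied to the counts only and is not among the 19.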

Additional observations from a re-analysis of the deposited data

Results flagged for a closer look

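Single mice standing far from the rest of their genotype were looked for in 40 sets of 5 values, and 4 were found, while chance gives about 1 in 20, here 2. Wild-type mouse 3 had 17.74 for Des, the others lying between 16.10 and 16.55, and 11.62 for Hsf1, the others lying between 10.57 and 10.67. Wild-type mouse 2 had 4.04 for Cryab minus Hspb2, above the others at 3.47 to 3.63. Knock-out mouse 4 had 1.05 for Hspb2 minus Hspb3, below the others at 1.19 to 1.24. No member's own rlog values had such a mouse.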

How the results depend on the processing

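Hspb7 kept its direction and its call in all 19 alternatives. Hspb7 minus the mean of the other 7 members, a comparison chosen after the values were seen, and Hspb2 minus Hspb3 kept theirs in all 12. The number of members higher was 3 after quantile normalization, 4 with sample weights, 2 with the Y-linked covariate, 4 without wild-type mice 2 and 3 together, and 1 to 4 with 1 mouse left out (4 without wild-type mouse 3, 2 without wild-type mouse 4). Over all tested genes, 1100 were higher in the main fit, 1090 after quantile normalization and 2093 with sample weights. There were 1135 with the Y-linked covariate, 1103 without the 2 mice, 1335 without wild-type mouse 3 and 1058 without wild-type mouse 4. Hspb3 passed with 0.34 after quantile normalization, 0.51 with sample weights and 0.40 with the Y-linked covariate (0.26 to 0.37 with 1 mouse left out). Bag3 passed with 0.37 after quantile normalization, with 0.30 under sample weights and with 0.35 without the 2 mice (0.23 to 0.35). Hspb6 passed with 0.33 under sample weights and 0.49 without the 2 mice (0.13 to 0.41), and Cryab with 0.47 without the 2 mice. Hspb2 turned to 0.098 with sample weights and 0.050 with the Y-linked covariate (-0.23 to 0.0091 with 1 mouse left out). Hspb8 turned to 0.048 after quantile normalization, 0.075 with sample weights, 0.067 with the Y-linked covariate and 0.023 without the 2 mice (-0.18 to 0.034). Stub1 turned to 0.035 with sample weights, 0.081 with the Y-linked covariate and 0.0081 without wild-type mouse 3 (-0.167 to 0.0081 with 1 mouse left out). After quantile normalization Cryab minus Hspb2 was 0.37 and Bag3 minus Hspb8 0.32, both passing, and with 1 mouse left out they lay between 0.28 and 0.45 and between 0.28 and 0.41. The cause was not tested. Of the pathway genes, 1 was higher and 2 were lower. The higher count was 4 after quantile normalization, 4 with sample weights, 2 with the Y-linked covariate, 4 without the 2 mice, 0 at the threshold of 0.01 and 1 to 4 with 1 mouse left out. The lower count was 1 without a limit on expression, 1 with a single prior variance, 11 with sample weights, 1 at the threshold of 0.01, 1 without the 2 mice and 1 to 4 with 1 mouse left out. With the replicate block it was 1, since Stip1 lost its call (limma, adjusted p = 0.0706), while the call of each of the 8 members was the same and 1579 genes changed in all. No pairing of the mice by number was seen, which does not exclude one. Deviations of same-numbered mice correlated between -0.219 and 0.0673, and 0 of 10 samples correlated best with their own number. Over all genes, the main fit gave 1956 changed (1100 higher, 856 lower). Sample weights gave 4220 (2093 higher, 2127 lower) and the threshold of 0.01 gave 994 (623 higher, 371 lower). With 1 mouse left out, 1400 to 2496 changed, 833 to 1335 higher and 560 to 1161 lower. Median centring gave 942 higher and 979 lower. Of the 16 most alike genes, 5 stayed without wild-type mouse 3, and the longer heat shock element was found in 0 members in place of 5. Depth is unknown, so no counting error could be given.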
